A study of Mus musculus with 3 samples.

Results

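Integrins and laminins were examined in NIH3T3, an immortal fibroblast line from mouse embryos, carrying either an shRNA (short hairpin RNA) that targets retinol saturase or the empty vector. The genes were all those on the array whose probe sets carry exactly 1 gene symbol of the integrin alpha (Itga), integrin beta (Itgb1 to Itgb8) or laminin alpha, beta and gamma chain families (Lama, Lamb, Lamc). This gave 34 genes, 24 integrins and 10 laminins, with 73 probe sets, out of 18193 genes with 34945 probe sets.

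The series belongs to an RNA interference screen for resistance to oxidative stress. The cells with the RetSat shRNA, which the labels call highly resistant to the organic peroxide t-BHP (tert-butyl hydroperoxide), are represented by 1 array, numbered 2 in its title. The cells set against these carry the empty vector, were grown in calf serum and DMEM without treatment, and are represented by 2 arrays, empty vector 1 and empty vector 2. Growth medium and treatment of the RetSat shRNA cells, and whether any of the cells were a clone or a pool, are not stated in the labels. The labels do not say whether separate cultures were used for the empty-vector arrays, so the spread between them may be technical.

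Integrins are membrane receptors built from an alpha and a beta subunit, and the pair decides which matrix protein is bound. Laminins are secreted trimers of an alpha, a beta and a gamma chain that form the basement membrane, a sheet of matrix to which cells attach through integrins and dystroglycan. In fibroblasts, integrins tie fibronectin, collagen and laminin to the actin cytoskeleton through adaptor proteins such as talin and vinculin.

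Signals are linear intensities of probe sets, and differences are given as log2(signal + 10.2), which understates the difference of dim genes. The probe set of highest mean signal stands for its gene, and genes were tested when that mean, on the log2 scale, was at or over the median of all probe sets. Signals of different genes come from different probes and are not set against one another. The target of the shRNA goes with the label: Retsat read 69.5 with the RetSat shRNA, against 416 and 496 on empty vector 1 and 2, which leaves 15.2% of their mean. Empty vector 1 stood apart from the other arrays. Over all 10843 genes tested, the SD of the log2 difference was 0.336 between RetSat shRNA and empty vector 2 but 0.754 between RetSat shRNA and empty vector 1 and 0.739 between the empty-vector arrays. The median of all genes also lay 0.14 log2 higher on RetSat shRNA and on empty vector 2 than on empty vector 1. Results are therefore given against each empty-vector array. Of the fibroblast markers, 10 of 11 reached the median signal, and their summed signal was 73667 on RetSat shRNA against 76262 and 70472 on empty vector 1 and 2. Fap, a fibroblast surface protease, was the exception at 5.2 against 6.6 and 1.4.

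Promoter sequences are shown for the beta chains in which each family's members parted. On the probe sets used for the genes, Lamb1 read below both empty-vector arrays on RetSat shRNA and its paralogue Lamb2 between them. Itgb5 read above both and Itgb1 between them. Another probe set of Lamb1 lay between the control arrays. Against empty vector 2 alone, Itgb5 and Itgb1 were alike, at 0.22 and 0.17 log2 above it, and they parted only against empty vector 1. The windows are those of RefSeq on GRCm38.p6, from 250 bases before to 50 bases after the gene's start, all on the plus strand, at chr12:31265043-31265342 for Lamb1, chr9:108479612-108479911 for Lamb2, chr8:128685404-128685703 for Itgb1 and chr16:33829415-33829714 for Itgb5. Capitals mark matches, on either strand, to the GC box GGGCGG and the CCAAT box.

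Lamb1: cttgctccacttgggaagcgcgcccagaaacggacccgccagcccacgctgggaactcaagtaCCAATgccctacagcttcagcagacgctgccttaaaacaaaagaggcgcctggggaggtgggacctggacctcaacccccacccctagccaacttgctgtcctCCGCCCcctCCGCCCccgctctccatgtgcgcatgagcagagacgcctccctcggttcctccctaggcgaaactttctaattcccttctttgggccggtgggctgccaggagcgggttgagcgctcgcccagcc
Lamb2: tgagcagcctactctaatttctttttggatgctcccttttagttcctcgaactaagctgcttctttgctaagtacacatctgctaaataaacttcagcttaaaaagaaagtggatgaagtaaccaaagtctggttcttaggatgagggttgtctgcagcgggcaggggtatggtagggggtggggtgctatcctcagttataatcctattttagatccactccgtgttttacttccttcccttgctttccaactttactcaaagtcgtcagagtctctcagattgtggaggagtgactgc
Itgb1: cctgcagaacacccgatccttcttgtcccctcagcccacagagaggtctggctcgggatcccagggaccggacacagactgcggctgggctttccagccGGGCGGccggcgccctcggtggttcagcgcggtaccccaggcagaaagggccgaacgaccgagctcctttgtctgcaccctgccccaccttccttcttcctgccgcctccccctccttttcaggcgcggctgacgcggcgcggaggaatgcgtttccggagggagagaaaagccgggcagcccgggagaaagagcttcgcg
Itgb5: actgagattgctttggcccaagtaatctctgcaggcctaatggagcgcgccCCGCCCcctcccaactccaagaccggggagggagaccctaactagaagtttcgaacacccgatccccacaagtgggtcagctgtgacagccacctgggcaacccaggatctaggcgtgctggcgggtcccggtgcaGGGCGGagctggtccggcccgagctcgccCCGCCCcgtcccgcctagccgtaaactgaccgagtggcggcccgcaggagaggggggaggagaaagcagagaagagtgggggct

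The Lamb1 window held 2 GC boxes and 1 CCAAT box, that of Itgb5 3 GC boxes, that of Itgb1 1 GC box, and that of Lamb2 no match. GC content was 63.7% for Lamb1, 44.0% for Lamb2, 67.3% for Itgb1 and 65.7% for Itgb5, and 52.7% in the median of all 32851 windows of the table. Neither the TATA box TATAAA nor the AP-1 site TGANTCA, where N is any base, was matched in these windows, and no match overlapped another. The table held 25 windows for 22 of the 34 genes. A GC box was matched in 48.0% of these windows and 35.7% of all windows, a CCAAT box in 16% and 37.4%, a TATA box in 0 of 25 and 13.6%, and an AP-1 site in 12.0% and 7.81%. A match describes the letters of the window and does not show a bound site.

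No integrin or laminin gene passed the limma test between RetSat shRNA and empty vector. Of the 34 genes, 16 reached the signal filter, 11 integrins and 5 laminins, and 0 of 16 had an adjusted p under 0.05 in limma's moderated test, against 0% of all genes tested (0 of 10843). At an unadjusted p under 0.05 it was again 0 of 16, against 0.996% of all genes, and the smallest unadjusted p was 0.175 in limma, for Lama4. The spread in the fit comes from the 2 control arrays alone, with 1 residual degree of freedom per gene, so that a p that misses the threshold does not show that a gene is level. Retsat itself, at 15.2% of the empty-vector mean, did not pass in this fit. Of the other settings run, it passed only with a robust prior. None was at least 2-fold higher or at least 2-fold lower than on both empty-vector arrays, against 0.0922% and 0.498% of all genes. By position alone, 5 of 16 read above both arrays and 4 of 16 below both, against 34.4% and 25.4% of all genes, so the counts for both families together were near the background. Against empty vector 1 alone, 11 of 16 read higher on RetSat shRNA (59% of all genes), 0 exceeded it at least 2-fold (3.45%) and 1, Lama4, was at least 2-fold lower (10.2%). Against empty vector 2 alone, 6 of 16 read higher (49.9%), and none was at least 2-fold higher (0.719%) or lower (1.01%).

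**Figure D1:**
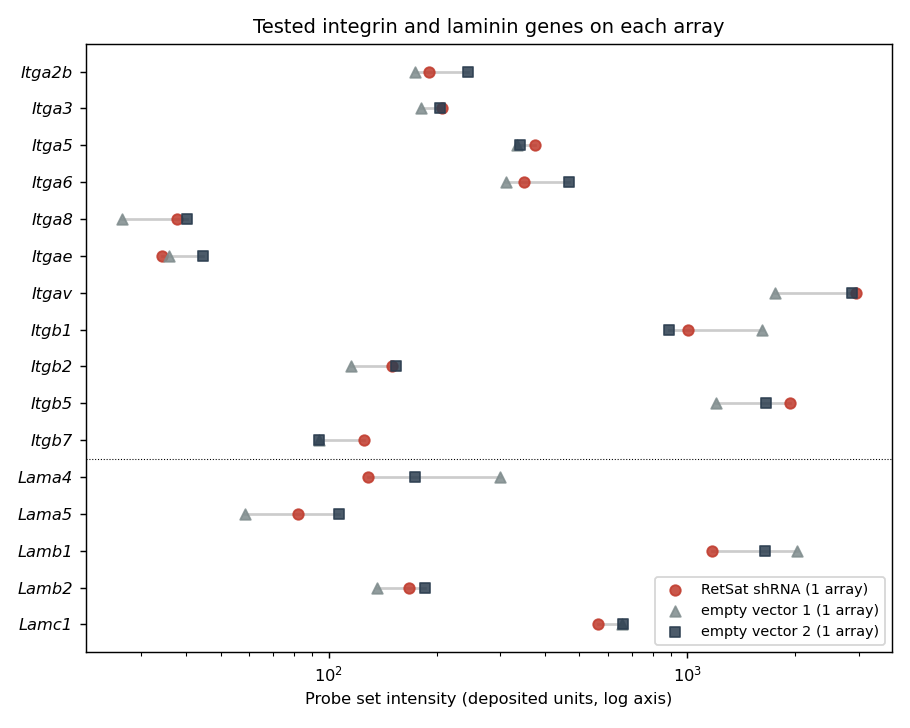
Probe set intensity (log axis, deposited units) of the 11 integrin and 5 laminin genes tested, a point per array and a grey bar over the range of the 3 arrays. Positions compare within a row only. Lama4, Lamb1 and Lamc1 have their RetSat shRNA point left of both empty-vector points, and Itgb5 and Itgb7 have it right of both.

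The laminin chains read lower on RetSat shRNA than on empty vector 2 in all 5 genes tested, against 50% of all genes, and 3 of the 5 also read lower than on empty vector 1, so that they lay below both, against 25.4% of all genes. The 3 were Lama4, Lamb1 and Lamc1, the chains of a laminin trimer known from mesenchymal and vascular matrix. The median log2 difference from empty vector 2 was -0.34 for the 5 genes and 0.00 for all genes tested, and from empty vector 1 it was -0.22 and 0.14. None passed limma.

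Lamb1, the beta chain of most laminins outside the neuromuscular and glomerular forms, read 1171 on RetSat shRNA, against 2023 on empty vector 1 and 1649 on empty vector 2. RetSat shRNA was the lowest array, at 63.8% of the empty-vector mean of 1836 ± 264 (SD, n = 2). On the log2 scale it lay -0.78 from empty vector 1, -0.49 from empty vector 2 and -0.64 from their mean (SE 0.51, adjusted p = 1 in limma). The empty-vector arrays differed by 0.29, so RetSat shRNA lay farther from the nearer of them than they lay from each other. The other probe sets of Lamb1 gave a mixed account. A second one read 39.3 on RetSat shRNA, against 204 and 70.2 on empty vector 1 and 2, in the same order, but another read 302 against 401 and 279, which placed RetSat shRNA between the control arrays. The remaining probe set lay below the filter at 3.4, against 17.7 and 30.5.

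Lama4, the alpha chain of that trimer, read 129 on RetSat shRNA, against 300.2 on empty vector 1 and 174 on empty vector 2. All 3 arrays lay apart, and the empty-vector arrays differed by more (0.75 log2) than RetSat shRNA did from empty vector 2 (-0.41). From empty vector 1 the log2 difference was -1.16, at least 2-fold lower, as for 10.2% of all genes. The SE from the mean was 0.54. A dimmer probe set of Lama4 read 15.6, against 26.4 and 4.0, and did not follow that order.

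Lamc1, the gamma chain that most laminins share, read 564 on RetSat shRNA, against 656 on empty vector 1 and 662 on empty vector 2. The control arrays were close (659 ± 3.96, SD, n = 2), and RetSat shRNA lay below both by 0.22 and 0.23 log2 units, which is 85.5% of their mean. The difference of -0.22 had an SE of 0.50 in the model, which borrows its spread from all genes. Its other probe set, below the filter, read 32.8, against 62.8 and 8.9.

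Lama5 and Lamb2 read between the empty-vector arrays on the probe sets used for the genes. Lama5, the alpha chain of the widespread basement membrane laminins of epithelia and vessels, read 82.1 on RetSat shRNA, against 58.6 and 107 on empty vector 1 and 2. Its other probe sets, below the filter, lay below both, at 9.7 against 13.7 and 27.6 and at 2.2 against 6.8 and 19.9. Lamb2, the beta chain of laminins at the neuromuscular junction and in the glomerulus, read 167, against 136 and 186. On the probe sets used for both genes, empty vector 1 was the lowest array and empty vector 2 the highest, by 0.76 and 0.42 log2 apart.

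**Figure D2:**
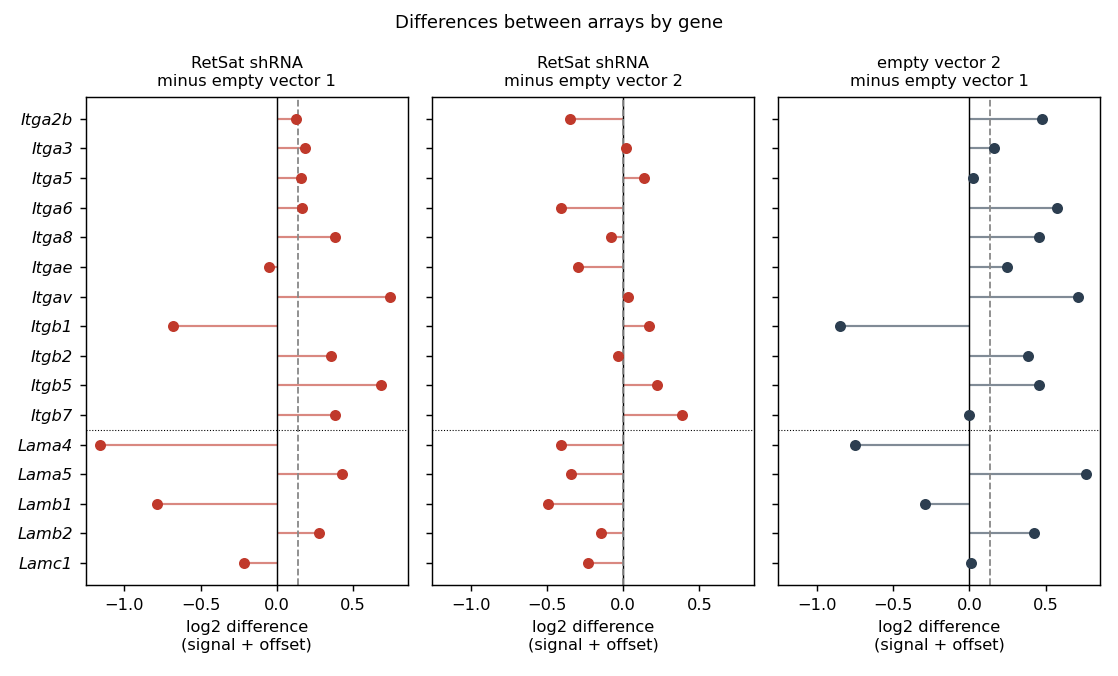
Log2 difference of signal + offset for each tested gene, from left to right RetSat shRNA minus empty vector 1, RetSat shRNA minus empty vector 2, and empty vector 2 minus empty vector 1. The dashed line is the median of all 10843 genes tested. The laminins below the dotted line all lie left of 0 in the middle panel, whereas the integrins lie on both sides, and in the right panel Itgb1, Lama4 and Lamb1 lie left of 0 and Itgb7 lies at it.

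The median difference of the integrin genes lay close to that of all genes. Of the 11 tested, 5 read above both empty-vector arrays (Itga3, Itga5, Itgav, Itgb5 and Itgb7), 1 below both (Itgae) and 5 between them, against 34.4% above both and 25.4% below both among all genes. Relative to empty vector 1 and 2, the median log2 difference was 0.18 and 0.02, compared with 0.14 and 0.00 for all genes. Between the control arrays, 9 of 11 read higher on empty vector 2 than on empty vector 1, against 59.3% of all genes, and 0 of 11 differed at least 2-fold, against 3.41% higher and 9.32% lower.

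The subunits that bind laminin were level or split. Itga3, which pairs with Itgb1 in a laminin receptor, read 207 on RetSat shRNA, against 181 and 204 on empty vector 1 and 2. RetSat shRNA was within 0.02 log2 of empty vector 2. A second probe set of Itga3 read 124, against 79.7 and 27.2, so it too was highest on RetSat shRNA, but by a wide margin and with the control arrays in the opposite order. The remaining one, below the filter, was lowest on RetSat shRNA at 11, against 26.6 and 40.9. Itga6, the laminin receptor subunit that pairs with Itgb1 or Itgb4, read 351, against 312 and 469, between the control arrays. Its other probe set read 240.2, against 290 and 337, below both. The muscle laminin receptor subunit Itga7 did not reach the filter and read 42.5, against 45.8 and 11.4.

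Itgb1, the beta subunit shared by the laminin, collagen and fibronectin receptors, separated empty vector 1 from the other arrays. It read 1004 on RetSat shRNA, against 1613 on empty vector 1 and 891 on empty vector 2. RetSat shRNA was 0.68 log2 below empty vector 1 and 0.17 above empty vector 2, while the control arrays differed by 0.85. A second probe set read 708.5, against 1253 and 695, in the same pattern. Another, whose name ends in x_at, the suffix for probe sets that may cross-hybridise, read 89.9, against 53.3 and 85.8, with empty vector 1 the lowest. The difference of Itgb1 from the empty-vector mean (-0.25, SE 0.55) thus has its sign from empty vector 1, and without that array it is 0.17.

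Itga5, Itgb5 and Itgav, subunits of the fibronectin and vitronectin receptors, had their highest signal on RetSat shRNA on the probe sets used for the genes, with small margins over empty vector 2. Itga5, which pairs with Itgb1 as the main fibronectin receptor, read 376 on RetSat shRNA, against 336 and 341 on empty vector 1 and 2. RetSat shRNA was above both by 0.16 and 0.14 log2, with the control arrays 0.02 apart. Other probe sets of Itga5 disagreed, reading 48.1 against 71.1 and 85.2 in one case and 42.3 against 65.1 and 27.8 in another.

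Itgb5, the beta subunit that joins Itgav in a vitronectin receptor, had the same order on every probe set. Its 4 probe sets read 1938, 1577, 1115 and 1091 on RetSat shRNA, against 1204.5, 900.4, 653 and 682 on empty vector 1 and 1659, 1448, 1012 and 990.2 on empty vector 2. RetSat shRNA was the highest array on all 4 and empty vector 1 the lowest. The first lay 0.68 log2 above empty vector 1, 0.22 above empty vector 2 and 0.45 above their mean (SE 0.51, adjusted p = 1 in limma), with the control arrays 0.46 apart. The distance from empty vector 2 was therefore smaller than the spread between the controls.

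Itgav, the alpha subunit of the vitronectin receptors, read 2948 on RetSat shRNA, against 1756 on empty vector 1 and 2886 on empty vector 2. RetSat shRNA and empty vector 2 were level (0.03 log2), and both lay above empty vector 1 by 0.74 and 0.71. The next probe set of Itgav read 58.8, against 119 and 61.6, so it had RetSat shRNA and empty vector 2 level again but below empty vector 1. Its 3 remaining probe sets lay below the filter at 5.4 to 13.4 on RetSat shRNA. Itga8, another subunit that recognises the RGD motif (arginine, glycine, aspartate) of matrix proteins, read 37.8, against 26.6 and 40.4. It lay near the filter and between the control arrays.

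**Figure D3:**
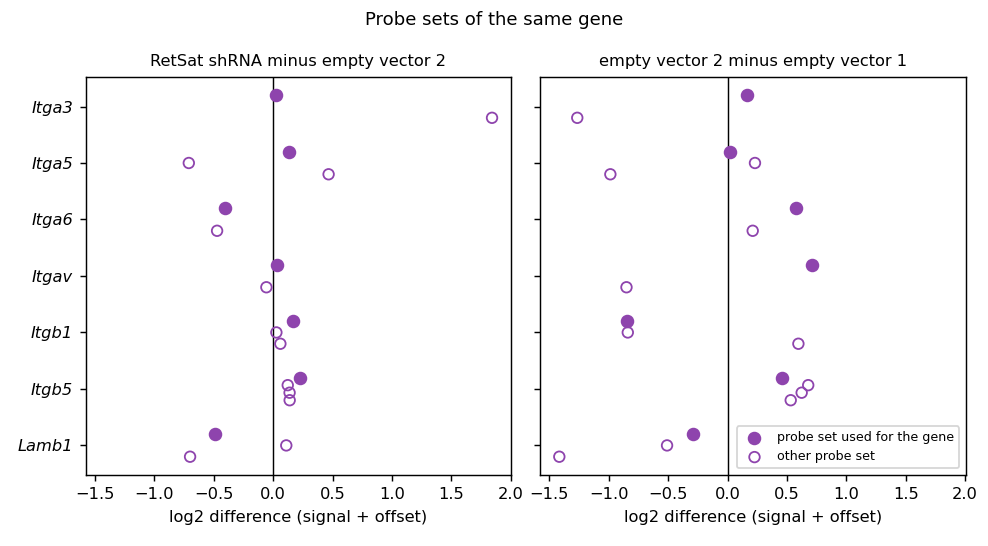
Log2 difference of signal + offset for genes with more than 1 probe set at or over the filter, RetSat shRNA minus empty vector 2 on the left and empty vector 2 minus empty vector 1 on the right. Filled points are the probe sets used for the genes and open points the others. The 4 points of Itgb5 stay together in both panels, and in the right panel those of Itga3, Itga5, Itgav and Itgb1 lie on both sides of 0.

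Of the subunits known from blood cells, Itgb7, Itgb2, Itgae and Itga2b reached the filter in this fibroblast line, whereas Itgal, Itgam, Itgax and Itga4 did not. Itgb7, the beta subunit of lymphocyte homing receptors, read 126 on RetSat shRNA, against 94.1 and 93.9 on empty vector 1 and 2. RetSat shRNA was above both by 0.38 log2, with the control arrays level (94.0 ± 0.141, SD, n = 2), and the SE from the model was 0.50. Itgb2, the beta subunit of the leukocyte integrins, read 151, against 116 and 154, level with empty vector 2. Itgae, the partner of Itgb7 on lymphocytes of epithelia, read 34.4, against 36.0 and 44.6, and its place below both arrays was lost after quantile normalization and after centring the arrays on their medians. The other probe set of Itgae, below the filter, read 3.8 against 21.5 and 43, also below both. Itga2b, the platelet fibrinogen receptor subunit, read 190.4, against 174 and 245, between the control arrays.

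The markers of those cells were mostly dim. The 11 leukocyte markers had a summed signal of 395.5 on RetSat shRNA, against 383 and 458 on empty vector 1 and 2. These markers went both ways. Above both control arrays were Ptprc, the pan-leukocyte antigen (15.2 against 4.4 and 5.1), Spi1, a myeloid transcription factor (62.4 against 42.2 and 41.7), and Lyz2 (29.4 against 22.4 and 21.8). Below both were Cd68 (119.7 against 142 and 132.8), Adgre1 (21.4 against 29 and 36.7) and Cd3e (3.4 against 8.4 and 9.8). The rest lay between the control arrays. The 4 platelet markers summed to 237 against 259 and 289, below both control arrays, with Pf4, a platelet chemokine, at 27.0 against 55.2 and 49.1. Among them Ppbp, another platelet chemokine, read 171 against 180.4 and 159, and Gp9, a platelet surface glycoprotein, read 2.8 against 3.2 and 26.2. The titles name only NIH3T3 cells, a fibroblast line, and whether blood cells had any part in these signals was not tested. In bulk RNA, fewer cells of a type and less RNA per cell cannot be told apart. The 8 epithelial, 7 endothelial and 6 muscle markers summed to 317, 126 and 146.5 on RetSat shRNA, against 386, 123 and 127 on empty vector 1 and 323, 79.3 and 194 on empty vector 2.

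A description chosen after the values were seen sets the distance from the controls against the distance between them. Itga5 and Itgb7 read higher, and Lamb1 and Lamc1 lower, than both empty-vector arrays by more than these differed from each other. That is 2 of 16 genes on each side, against 10.3% and 7.59% of all genes tested. For 11 of 16 genes RetSat shRNA lay nearer to empty vector 2 than to empty vector 1, against 77.3% of all genes.

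The other 18 genes did not reach the filter, and 12 of them read below the median of all probe sets on every array (35.7 on RetSat shRNA, 39.4 and 37.9 on empty vector 1 and 2). Their signals ran from 1.2 to 42.5 on RetSat shRNA, from 0.9 to 45.8 on empty vector 1 and from 1.2 to 45.6 on empty vector 2. No detection calls were used, so it is not known which of these stood above background. They were the collagen-binding subunits Itga1, Itga2 and Itga10, the laminin-binding Itga7, Itgb4, which pairs with Itga6 in epithelia, Itga4 and Itga9, the leukocyte subunits Itgal, Itgam and Itgax, the Itgav or platelet partners Itgb3, Itgb6 and Itgb8, and the laminin chains Lama1, Lama2, Lama3, Lamb3 and Lamc3.

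Of these 18 dim genes, 5 read above both control arrays on RetSat shRNA and 6 below both. The share of all genes below the filter in these positions was not counted, so the counts have no background beside them. Itgb8, a subunit of a receptor that activates latent TGF-beta, read 19.0 on RetSat shRNA, against 34.3 and 39.6 on empty vector 1 and 2. Lama3 and Lamb3, chains of the epithelial anchoring laminin, read 2.0 against 40.3 and 15.0, and 1.2 against 3.6 and 13.0. Itgax, a subunit of a complement receptor of myeloid cells, read 38.0 against 14.7 and 6.9. Itga9, a receptor subunit for tenascin and other ligands, read 18.6 against 7.9 and 3.9. Its other probe sets, at 1.5 against 16.3 and 1.1 and at 4 against 3.1 and 4.5, lay between the control arrays. Itgb4, the partner of Itga6, read 38.5 against 20.6 and 30.0. Itga10 and Itgam were the others above both, and Itga1 (15.9 against 35.3 and 24.1), Itga4 (3.5 against 18.1 and 8.0) and Itgb3 were the others below both. A second probe set of Itga1 lay between the control arrays, at 2 against 12.7 and 1.2. Itga4 had further probe sets above both (14.4 against 1.1 and 12.9), below both (1 against 33 and 1.7, 2.3 against 11.1 and 11.1) and between them (5.4 against 8.9 and 3.6). On the log2 scale the control arrays were the farthest apart for Itga2, Itga7 and Lamc3. Empty vector 2 minus empty vector 1 was 1.94, -1.37 and 1.26. Itga2, part of the collagen receptor of platelets and epithelia, read 35.6 against 4.3 and 45.6, and Lamc3 read 27.9 against 6.6 and 30.1. The other probe set of Lamc3 lay below both, at 8.4 against 21.2 and 17.2. Itgb3, which pairs with Itgav or Itga2b, read 5.6 against 21.6 and 8.7 on one probe set and 23.4 against 1.9 and 12.8 on the other, in opposite order.

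Proteins that act with the integrins on both sides of the membrane were read from lists fixed for this purpose, and no gene of these lists passed limma. Adhesion adaptors and kinases link integrin tails to actin. Of 39 tested (45 listed), 13 read above both empty-vector arrays and 8 below both, against 34.4% and 25.4% of all genes. Relative to empty vector 1 and 2, the median log2 difference was 0.42 and -0.01, compared with 0.14 and 0.00 for all genes. Among those apart from both control arrays, vinculin (Vcl), which reinforces the link of talin to actin, read 937.5 on RetSat shRNA, against 1384 and 1106 on empty vector 1 and 2. Lpp, a LIM protein of focal adhesions, read 1004 against 3292 and 1297, and Dock1, an activator of Rac, read 266 against 550.2 and 409. The tyrosine kinase Src read 286.5 against 137 and 245, in the other direction. Talin 2 (Tln2) read 233 against 310.4 and 259.9. Parvg, the parvin of blood cells, was dim at 17.3 against 41.1 and 54.9 and reached the filter only through the control arrays. Differences of these genes from empty vector 2 ran from -1.24 (Parvg) to 0.22 (Src).

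Integrin ligands other than laminins had 7 of 20 tested genes above both empty-vector arrays and 5 below both, with a median of 0.17 against empty vector 1 and -0.07 against empty vector 2. Ccn1, a matricellular ligand of Itgav integrins, read 1184 on RetSat shRNA, against 973 and 843 on empty vector 1 and 2, above both. Tenascin C (Tnc) read 717 against 1840.4 and 938, and periostin (Postn) read 4.0 against 317 and 18.8. Postn was the 1 gene of these lists at least 2-fold lower than both arrays, as were 0.498% of all genes. Its log2 differences from empty vector 1 and 2 were -4.53 and -1.03. It lay below the median signal on RetSat shRNA and empty vector 2. Postn reached the filter only through empty vector 1, so its low reading is not independent of the filter. Nephronectin (Npnt), a ligand of Itga8, read 129 against 102 and 109, and Emilin1 read 486 against 333 and 449. Madcam1, the ligand of Itgb7 receptors on vessels, was dim at 27.2 against 47.7 and 41.3 and reached the filter only through the control arrays.

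Basement membrane partners of laminin had 4 of 18 tested genes above both arrays and 5 below both, with a median of 0.23 against empty vector 1 and -0.12 against empty vector 2. Nidogen 1 (Nid1), which joins laminin to collagen IV through the gamma chain, read 6223 on RetSat shRNA, against 6483 and 6694.5 on empty vector 1 and 2, so it lay below both by 0.06 and 0.11 log2. Collagen IV, the other sheet of the basement membrane, had Col4a1 at 2053 against 1506 and 1946, and dystroglycan (Dag1), the laminin receptor outside the integrin family, read 1371 against 1160.3 and 1246. Both were above the 2 control arrays, but Col4a2, the partner chain of Col4a1 (named here after its values were seen), read 711 against 611 and 849, between them. Sparc, a collagen-binding glycoprotein, read 15790.5 against 13104 and 15323. Col18a1 and Col7a1 were dim at 20.9 against 55.3 and 43.4, and 41.8 against 53.6 and 87.0. Col18a1 reached the filter only through the control arrays.

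Membrane partners of integrins read mostly above the controls. Of 11 tested genes, 8 read above both empty-vector arrays and 0 below both, against 34.4% and 25.4% of all genes, with a median of 0.46 against empty vector 1 and 0.06 against empty vector 2. The urokinase receptor Plaur read 564 on RetSat shRNA, against 312 and 449.6 on empty vector 1 and 2. Slc3a2, the CD98 heavy chain that binds beta subunit tails, read 3609 against 2407 and 3165. Cd151, the tetraspanin of laminin-binding integrins, read 1635 against 722 and 1571, so its distance lay almost wholly between empty vector 1 and the rest. The tetraspanins Cd81 (7018.5 against 5045 and 6505) and Tspan4 (2389 against 1516 and 2251) and the immunoglobulin protein Bsg (8410.4 against 6115 and 8040.2) had that order too. From empty vector 2 these 6 genes differed by 0.06 to 0.32 log2, and none passed limma. The others above both arrays, Cd9 and Cd47 (named here after their values were seen), were nearly level with empty vector 2, at 0.03 and 0.04 log2 above it.

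**Figure D4:**
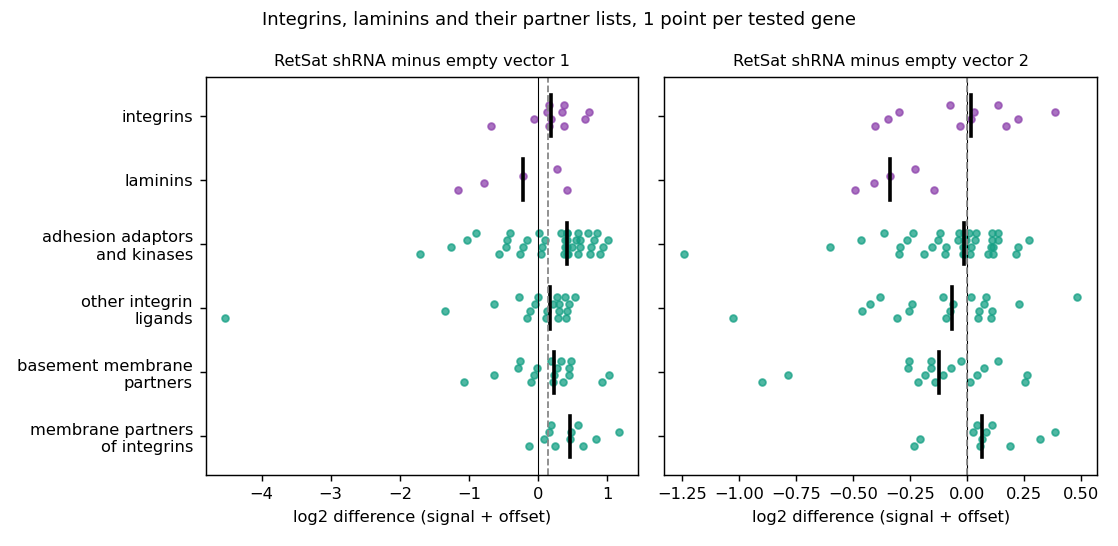
Log2 difference of signal + offset for each tested integrin, laminin and partner gene, RetSat shRNA minus empty vector 1 on the left and minus empty vector 2 on the right, on different axes. Each point is a gene, the black bar is the list's median and the dashed line the median of all 10843 genes. Against empty vector 2 the laminin median is -0.34 and the other medians lie between -0.12 and 0.06.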

How the data were processed

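The authors deposited linear intensities of 45101 probe sets on 3 single-colour arrays of biotin-labelled total RNA, per the labels. Software and summarisation are not stated in the labels. The 2% trimmed mean was 250.002 on each array, so the deposited intensities had been scaled to a common level, and no further normalization was applied. The number of arrays limits the precision.

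Symbols came from the platform annotation, and all 73 probe sets had the same symbol in RefSeq's table (GRCm38.p6). Probe sets with several symbols (932) or none (9160) and 64 array controls were not used. The offset of 10.2 is the 25th percentile of all values. The fit used lmFit and eBayes of limma 3.58.1 (R 4.3.3) over all 10843 genes tested, two-sided, with Benjamini-Hochberg adjustment at 0.05, and was tested on simulated data. Groups came from sample titles. The genes, the lists, the tests and the rule that names up to 6 genes of each partner list, by the smaller of the differences from the 2 empty-vector arrays, were chosen with earlier results of these data known. Alternatives were 2 other offsets, 2 normalizations, 2 filters, the mean over probe sets, a robust prior and leaving out each empty-vector array.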

Additional observations from a re-analysis of the deposited data

How the results depend on the processing

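No integrin or laminin gene passed limma under any of the 8 other settings. Over all genes limma called 1 with the arrays centred and 7 with a robust prior. No paired analysis was possible because the groups share only 1 number in their titles, and whether it marks a replicate on the RetSat shRNA array is not given. Lama4, Lamb1 and Lamc1 kept their sign in every setting run, but with the mean over probe sets Lamc1 came to -0.0090 (from -0.22) and Lama4 to -0.30 (from -0.78). The sign turned for Itga2b after quantile normalization (0.023), and the cause was not tested. With the mean over probe sets it turned for Itga5 (-0.15), Itgav (-0.37) and Itgb1 (0.018). That mean takes in all probe sets of a gene, also those below the filter. For Itgav the probe set used lay 0.39 from the empty-vector mean and the others -0.97 to -0.31. With 1 empty-vector array left out, the sign turned for Itga2b, Itga6, Itga8, Itgb1, Itgb2, Lama5 and Lamb2.

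Of the members, 10 lay above and 10 below both arrays with no filter (34 tested). It was 3 and 2 with the filter at the 75th percentile (7 tested), and 2 above with the mean over probe sets (13 tested). The share of all genes in these positions was not counted under those settings. With 1 empty-vector array left out, the counts were 6 to 11 above and 5 to 10 below. Over all genes, those at least 2-fold higher and lower numbered 22 and 88 with an offset of 1, 2 and 9 with the median as offset, 386 and 415 with no filter, and 0 and 1 with the stricter filter. The higher side gave 25 after quantile normalization and 20 with the arrays centred, and the lower side 30 with the mean over probe sets. With 1 empty-vector array left out they ran from 78 to 374 and from 110 to 1104.

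The laminin median (-0.22) was -0.21 with the median as offset, -0.19 after quantile normalization, -0.13 with centring, -0.16 with no filter, -0.43 with the stricter filter (2 genes) and -0.16 with the mean over probe sets, and -0.34 to -0.22 with 1 control array left out. That of other integrin ligands (0.05) was 0.14 with centring, -0.031 with the mean over probe sets and -0.067 to 0.17 with 1 control array left out. For the membrane partners of integrins the median (0.26) was 0.10 after quantile normalization, 0.35 with centring and 0.065 to 0.46 with 1 control array left out. Dim signals limit the 18 genes below the filter.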
